A study of Mus musculus with 12 samples.

Results

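The growth hormone signalling group was followed from the receptor to its best known liver product, insulin-like growth factor 1. It was made up of 10 genes chosen by name, out of 55401 in the count table: the secreted products Igf1 and Igfals, the receptor chain Ghr, Jak2, Stat5a and Stat5b, the feedback inhibitors Socs2 and Cish, and the transcriptional repressors Bcl6 and Cux2. All 10 passed the filter on low counts. The question was whether the low level of Igf1 in iTgMir483 liver goes together with other genes that growth hormone controls.

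RNA was sequenced from the livers of 12 female mice at 15 weeks of age, 6 with the inducible transgene iTgMir483 and 6 controls from the same litters. The transgene holds a copy of the microRNA gene Mir483 at the Rosa26 locus, which is active in nearly every cell type, under a Tet-off switch. Doxycycline was given during pregnancy to keep it off and was then withdrawn, for expression from birth. The paper reports that doxycycline rescued fetal growth only in part, and silence before birth was not measured here. The transgene was not restricted to hepatocytes or to the liver, and the selection cassette had been removed with a ubiquitous Cre. The mouse names in the labels name the same cross in both groups without giving the alleles that controls carry. Each library was a separate mouse.

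Growth hormone from the pituitary binds GHR on hepatocytes, which activates the kinase JAK2, and JAK2 phosphorylates STAT5A and STAT5B. STAT5 then enters the nucleus and switches on Igf1 and Igfals, together with Socs2 and Cish, whose proteins dampen the same receptor. In rodents the pituitary releases growth hormone in pulses in males and more continuously in females, and through STAT5, BCL6 and CUX2 this pattern sets many sex differences of liver gene expression.

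Mir483 gives 2 mature microRNAs. Their sequences are shown because a seed match in a member's 3′ untranslated region (UTR) would place that member apart from the others. Capitals mark the seed, bases 2 to 8 (RefSeq, GRCm38.p6, minus strand, chr7:142654932-142654952 and chr7:142654968-142654989). The 2 seeds differ.
miR-483-3p: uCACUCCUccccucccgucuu
miR-483-5p: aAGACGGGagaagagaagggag

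Among the 10 genes, only Igf1 held a match to the miR-483-3p seed in its longest annotated 3′ UTR, and none held a match to the miR-483-5p seed. The match (AGGAGTG) was searched on the transcribed strand and lies at position 174 of a 6308-base UTR, at chr10:87930908-87930914 on the plus strand (GRCm38, GENCODE M21). It is in capitals below. The annotation includes it in 2 of the 7 Igf1 coding transcripts that have a 3′ UTR, and gene-level counts do not separate these transcripts. Of 12098 tested genes with a 3′ UTR, 1523 (12.6%) held this match, against 394 (3.26%) for the miR-483-5p match (CCCGTCT). The match is a description of the sequence, and long UTRs have more chances to hold one. The paper tested these letters of the mouse Igf1 3′ UTR with a luciferase reporter in a human cell line. It reports that a miR-483-3p mimic lowered the reporter, and that a reporter with the letters mutated did not fall. Binding in these livers was not measured here.
Igf1 3′ UTR site: acatcgtctttAGGAGTGtttgtttaaaa

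The promoters were searched for TTCNNNGAA, the palindrome that STAT5 is known to bind, from 250 bases before to 50 after each RefSeq start. Since it is a palindrome, 1 search covers both strands. It was present in 2726 of 32851 windows (8.30%) and in 2582 of 27025 genes (9.55%). It was found at Cish in the single window, at Igfals in 2 of 3 windows and at Bcl6 in both windows, which held 4 copies. Of the 10 members 9 had a window, all but Socs2. The windows of Igf1, Ghr, Jak2, Stat5a, Stat5b and Cux2 did not hold these letters. Igf1 had 1 window, and sequence outside the windows was not searched. Absence from a window therefore does not say that a gene lacks the motif elsewhere. The copies of Cish and Igfals are printed because these genes passed the test described below, with the motif in capitals (GRCm38.p6, plus strand). The 2 Cish copies lie 4 and 15 bases after the start, at chr9:107296659-107296667 and chr9:107296670-107296678, and the 2 Igfals copies at chr17:24877608-24877616 and chr17:24878173-24878181.
Cish first copy: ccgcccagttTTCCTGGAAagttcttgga
Cish second copy: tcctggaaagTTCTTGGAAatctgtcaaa
Igfals first copy: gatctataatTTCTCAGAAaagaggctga
Igfals second copy: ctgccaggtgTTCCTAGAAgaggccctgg

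Control libraries held 12244123 to 30431286 counts each, and iTgMir483 libraries 12415140 to 15846175. Mir483 had 0 counts in every control and 37.1 ± 13.1 CPM (SD, n = 6) in iTgMir483 livers, at least 194.1-fold above a floor of 3 counts per library, so the labels matched the transgene. Levels are given as CPM, counts per unit of library size after scaling by TMM, the trimmed mean of M-values. The sum of 9 hepatocyte markers was 131500 to 178500 CPM in controls and 72860 to 144400 CPM in iTgMir483 livers. Alb made up most of that sum, at 111900 ± 16400 CPM in controls and 76070 ± 28720 CPM in iTgMir483 livers (SD, n = 6). Of the 9 markers, Fgb rose, Cps1 fell and 7, Alb among them, were not called. Other markers also moved. The sum of 10 Kupffer cell and macrophage markers was 291.4 to 422.5 CPM in controls and 441.6 to 1285 CPM in iTgMir483 livers, with 8 of 10 called higher. Of 5 tested bile duct markers 3 were called higher, as were all 3 tested neutrophil markers, whose list summed to 3.33 to 5.86 CPM in controls and 7.02 to 25.6 CPM in iTgMir483 livers. Of 2 tested T and NK cell markers 1 was called higher. Beside these counts, 8.41% of all genes tested were called higher and 2.73% lower. By edgeR, and likewise by DESeq2 and limma-voom, 0 of 8 endothelial, 0 of 8 stellate and 0 of 3 B cell markers were called, with 3, 2 and 1 at an unadjusted p under 0.05. The endothelial markers Pecam1 (edgeR adjusted p = 0.0239) and Eng (0.0266) and the stellate marker Hgf (0.00556) rose, but by less than the fold threshold. In no list was a marker at 0 in every library. The part of these markers in the results below was not tested.

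Of the 10 genes, 2 fell (Igf1 and Igfals), 1 rose (Cish) and 7 were not called. Calls came from edgeR's quasi-likelihood test with p adjusted over 13205 genes, and needed an adjusted p below 0.05 together with more than a 1.5-fold difference. Over all of those, 11.1% were called, 8.41% higher and 2.73% lower. The median log2 fold change of the 10 genes was 0.04, beside 0.01 over all genes tested. In 1 of the 10, Igf1, the groups did not overlap, beside 7.92% of all genes tested. In a stricter test of whether a change exceeds 1.5-fold, Igf1 passed (adjusted p = 0.00593) while Igfals (0.562) and Cish (0.357) did not. That test is not among the 19 alternatives counted per gene below.

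**Figure D1:**
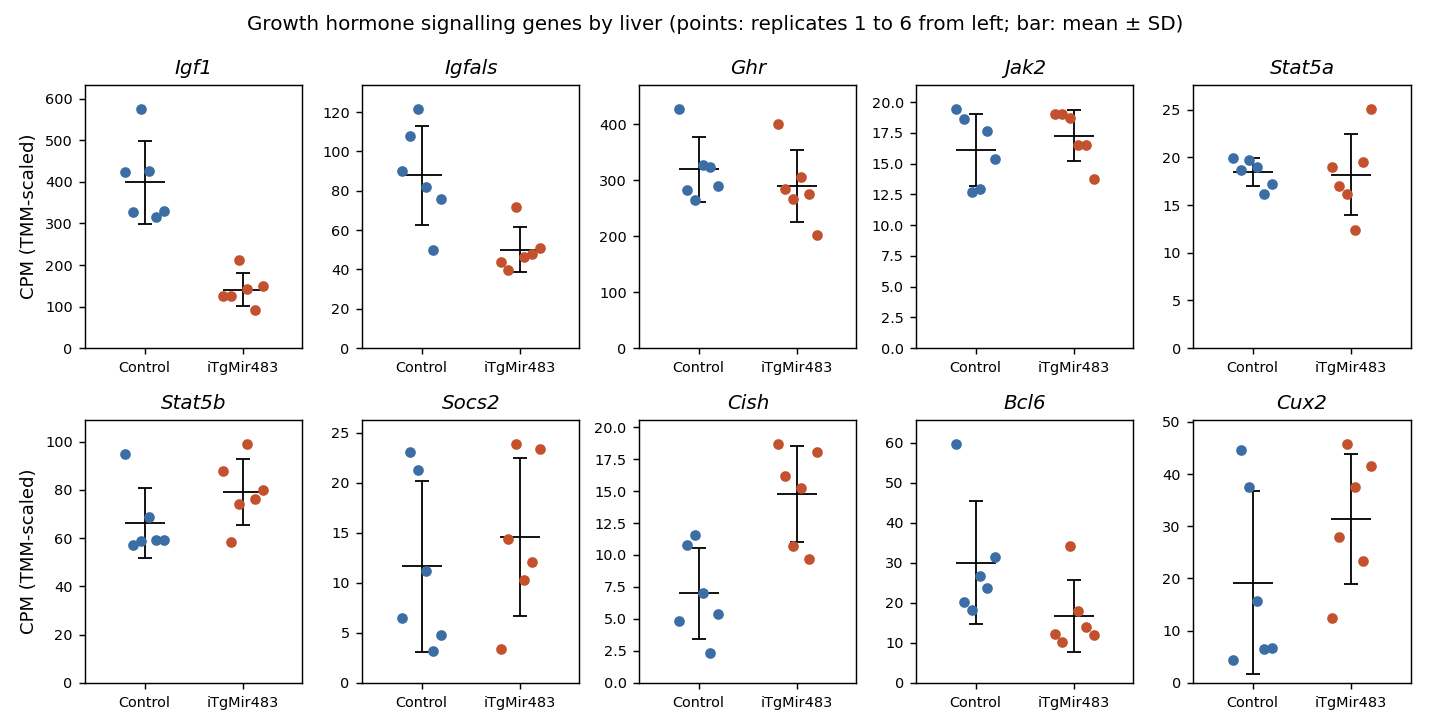
TMM-scaled CPM (vertical axes, from 0, a scale per gene) of the 10 growth hormone signalling genes in each control (blue) and iTgMir483 (red) liver, with points for replicates 1 to 6 from left to right and bars for the mean ± SD (n = 6 per group). The groups are separate for Igf1, with controls at 314.7 to 575.8 CPM and iTgMir483 livers at 91.5 to 211.6 CPM, while Socs2 and Cux2 spread widely within each group.

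Igf1 (ENSMUSG00000020053, chr10:87858265-87937042, plus strand), which encodes the circulating growth factor that mediates much of the growth response to growth hormone, fell 2.84-fold. The 6 control livers ran from 314.7 CPM over a median of 377.1 to 575.8 CPM. The iTgMir483 livers ran from 91.5 over 133.7 to 211.6 CPM. Every iTgMir483 liver was below the lowest control, and replicate 3 was the highest in both groups. The group means were 399.5 ± 99.7 and 140.7 ± 40.03 CPM (SD, n = 6 each), which is -1.51 ± 0.20 as a log2 fold change with its SE (adjusted p = 0.000371). In whole liver, fewer cells of a type and less RNA per cell cannot be told apart. Across the 19 alternative settings and left-out libraries the log2 fold change stayed between -1.66 and -1.37, and the highest adjusted p was 0.00153.

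Igfals (ENSMUSG00000046070, chr17:24865997-24882010, plus strand) encodes the acid-labile subunit, the liver protein that holds IGF1 and its binding protein in a large complex in blood. Controls ran from 50.1 over 86.1 to 121.6 CPM and iTgMir483 livers from 39.6 over 47.1 to 71.9 CPM. Of the 6 iTgMir483 livers 4 were below every control, and the overlap came from control replicate 5, the lowest control, and iTgMir483 replicates 3 and 6. Igfals fell by 0.81 ± 0.19 on the log2 scale (adjusted p = 0.00985), and it was called under the 19 alternatives, with adjusted p from 0.000607 to 0.0238, but not in the stricter test above.

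The receptor and the kinase showed no called difference. Ghr (ENSMUSG00000055737, chr15:3317760-3583492, minus strand), the receptor, ran from 264.7 over 306.5 to 427.5 CPM in controls and from 202.5 over 279.8 to 400.4 CPM in iTgMir483 livers. The ranges overlapped over most of their length, with replicate 1 the highest in both groups, and the log2 fold change was -0.14 ± 0.16 (adjusted p = 0.564). Jak2 (ENSMUSG00000024789, chr19:29251828-29313080, plus strand), the kinase bound to the receptor, ran from 12.7 to 19.4 CPM in controls and from 13.8 to 19.1 CPM in iTgMir483 livers. Its log2 fold change was 0.10 ± 0.13 (adjusted p = 0.622).

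The STAT5 genes lie next to each other on chromosome 11 and are closely similar in coding sequence, so reads could be shared between them. Stat5a (ENSMUSG00000004043, chr11:100859351-100885169, plus strand) was the steadiest member in controls, at 16.1 to 19.9 CPM, and ran from 12.4 to 25.1 CPM in iTgMir483 livers. Its log2 fold change was -0.02 ± 0.14 (adjusted p = 0.932). Stat5b (ENSMUSG00000020919, chr11:100780731-100850724, minus strand) is the main STAT5 form of liver. It ran from 57.2 over 59.1 to 94.8 CPM in controls and from 58.5 over 77.9 to 99.1 CPM in iTgMir483 livers. Apart from control replicate 1 all controls were at or under 68.9 CPM, and 5 of 6 iTgMir483 livers were above that. The log2 fold change was 0.26 ± 0.15 (adjusted p = 0.234). Without control replicate 1 it was 0.38 (adjusted p = 0.0385), still under the fold threshold.

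Of the feedback inhibitors, Cish rose and Socs2 was not called. Cish (ENSMUSG00000032578, chr9:107296026-107302784, plus strand), whose protein blocks STAT5 docking on the receptor, ran from 2.34 over 6.22 to 11.6 CPM in controls and from 9.65 over 15.7 to 18.7 CPM in iTgMir483 livers. Of the 6 iTgMir483 livers 4 were above every control. Control replicates 2 and 3 were the highest controls, and iTgMir483 replicates 3 and 5 fell within the control range. Cish rose 2.10-fold, a log2 fold change of 1.07 ± 0.31 (adjusted p = 0.0253). This call was lost without control replicate 4 (adjusted p = 0.0527), control replicate 6 (0.0545), iTgMir483 replicate 6 (0.0516) or both libraries numbered 1 (0.0683), with a log2 fold change of 0.89 to 1.27 over the 19 alternatives.

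Socs2 (ENSMUSG00000020027, chr10:95385362-95417180, minus strand) encodes a suppressor of cytokine signalling whose loss is known to produce oversized mice. It was scattered in both groups. Controls ran from 3.21 over 8.84 to 23.1 CPM and iTgMir483 livers from 3.42 over 13.3 to 23.9 CPM. The high controls were replicates 2 and 3, and the high iTgMir483 livers were replicates 3 and 6. The log2 fold change was 0.32 ± 0.49 (adjusted p = 0.691), so at this spread Socs2 could not be told from no change or from a rise as large as that of Cish.

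Neither repressor passed the test. Bcl6 (ENSMUSG00000022508, chr16:23965052-23988852, minus strand), a repressor that is higher in male liver and is itself repressed by STAT5, ran from 18.1 over 25.3 to 59.7 CPM in controls and from 10.2 over 13.1 to 34.3 CPM in iTgMir483 livers. Of the 6 iTgMir483 livers 5 were below every control, and 1 library stood apart in each group, control replicate 1 and iTgMir483 replicate 3. The log2 fold change was -0.84 ± 0.33 (adjusted p = 0.0884). It was -0.52 without control replicate 1 (adjusted p = 0.198) and -1.18 without iTgMir483 replicate 3 (adjusted p = 0.0139). DESeq2 gave -0.85 with an adjusted p of 0.0391. Cux2 (ENSMUSG00000042589, chr5:121856366-122050102, minus strand), a repressor of male-biased genes that is typical of female liver, ran from 4.33 over 11.2 to 44.6 CPM in controls and from 12.5 over 32.7 to 45.8 CPM in iTgMir483 livers. Controls 1, 5 and 6 were at or under 6.58 CPM, below the lowest iTgMir483 liver. The log2 fold change was 0.71 ± 0.52 (adjusted p = 0.361).

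**Figure D2:**
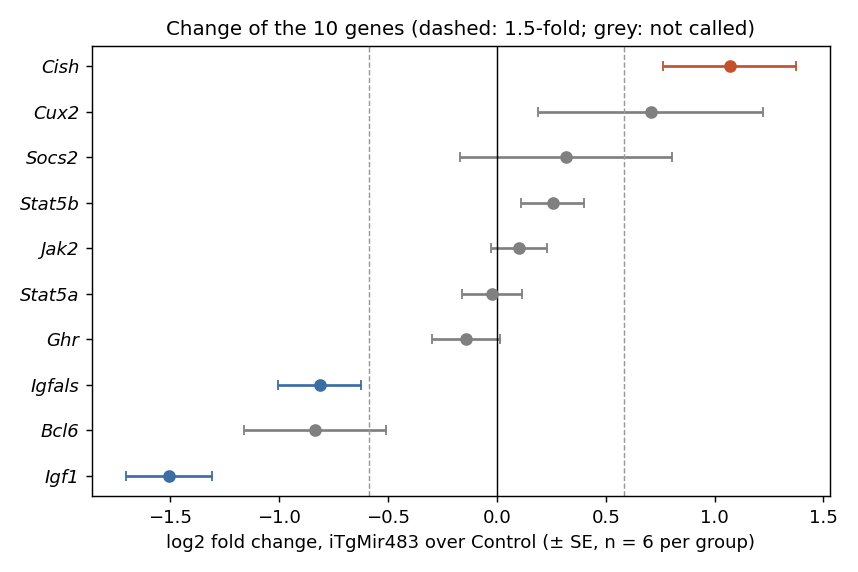
Log2 fold change, iTgMir483 over Control, of the 10 genes (horizontal axis, point ± SE, n = 6 per group), with dashed lines at a 1.5-fold change and colour for the genes called lower (blue) or higher (red). Igf1 at -1.51 lies farthest from 0, Cish at 1.07 is the only called gene on the other side, and Bcl6 at -0.84 is as far down as Igfals at -0.81 with a wider error.

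The spread among controls separated the group into steady and variable genes. The coefficient of variation over the 6 controls was 8.09% for Stat5a, 18.0% for Jak2, 18.2% for Ghr, 21.9% for Stat5b, 24.9% for Igf1 and 28.6% for Igfals. It was 51.0% for Bcl6, 51.2% for Cish, 73.6% for Socs2 and 91.3% for Cux2. The median over the 9146 tested genes with a control mean of 5 to 500 CPM was 13.1%. Of those genes 0.656% varied as much as Socs2 or more, 0.383% as much as Cux2, 1.68% as much as Cish and 1.71% as much as Bcl6. The 4 most variable members among controls were thus both feedback inhibitors and both repressors.

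Control replicates 2 and 3 were the highest controls for Socs2, Cish and Cux2 together, and they were the lowest for Bcl6. Control replicate 1 was the highest for Bcl6 and the lowest for Cux2. Among 12494 genes with a mean of at least 1 CPM, Cux2 was the 4th most like Socs2 over the 12 libraries, by the root mean square difference of log2 CPM profiles set to 0 at their control means (0.70, against 1.05 for a flat profile). The others in the first 5 were Depp1 (0.56), Glipr2 (0.63), Acot6 (0.69) and Micall2 (0.73). The genes most like Igf1 were Kyat1 (0.33), Hal (0.38), Cyp2c40 (0.38), Blcap (0.41) and Api5 (0.43), against 1.12 for a flat profile. Hal is the histidine-degrading enzyme histidine ammonia-lyase. Cyp2c40 is a cytochrome P450 on the list of female-biased genes given below, and was called lower there (log2 fold change -1.19, edgeR adjusted p = 0.00231). Of the 10 growth hormone genes, none was among the 5 most like Igf1, and these likenesses are descriptions.

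Divided by exon length, the levels in controls were in the order Igf1 (40.3 CPM per kilobase), Ghr (35.3), Igfals (27.8), Stat5b (12.0), Bcl6 (4.48), Jak2 (3.20), Stat5a (2.59), Cux2 (1.90), Socs2 (1.22) and Cish (1.09). In iTgMir483 livers the order of levels was Ghr (31.9 CPM per kilobase), Igfals (15.8), Stat5b (14.3), Igf1 (14.2), Jak2 (3.43), Cux2 (3.12), Stat5a (2.55), Bcl6 (2.502), Cish (2.30) and Socs2 (1.53). Only 1 pair of neighbours in each order had ranges that did not overlap, Stat5b and Bcl6 in controls and Igf1 and Jak2 in iTgMir483 livers. Igf1, Ghr, Igfals and Stat5b thus stood above the other 6 members in both groups, and Igf1 went from the 1st to the 4th place.

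Igf1 was then set against each other member within the same library, as log2(Igf1/member). This ratio is not moved by library scaling. It was lower in all 6 iTgMir483 livers than in any control for Ghr, Jak2, Stat5a, Stat5b and Cish, with mean differences of -1.36, -1.63, -1.47, -1.78 and -2.73. The difference was -1.96 for Socs2 and -2.67 for Cux2, each with 5 of 6 livers below every control. For Igfals the ratio was 2.20 ± 0.35 in controls and 1.47 ± 0.27 in iTgMir483 livers (SD, n = 6), a difference of -0.73 with 4 of 6 livers below every control. For Bcl6 the difference was -0.67, with 2 of 6 livers below every control. The low level of Igf1 was known when Igf1 was made the numerator, so these values are a description of by how much each member departed from it, with no test.

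Within groups, Igf1 followed no other member closely enough to pass. Over 19 relations (each other member in each group, and Mir483 in iTgMir483 livers, n = 6), the smallest adjusted permutation p was 0.693 for Pearson's r and 0.724 for Spearman's rho. The level of Igf1 against that of Mir483 gave r = -0.44 (permutation p = 0.444) and rho = -0.43 (permutation p = 0.419), with adjusted values of 0.84 and 0.724 and r = -0.50 without the 2 livers farthest from the median. The Mir483 reads come from poly(A) libraries, so the mature microRNAs were not measured. With 6 livers a group only a very tight relation could pass.

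Of 31 other listed genes around the receptor (kinases, STATs, SOCS proteins, phosphatases and adapters), 30 were tested, 2 were called higher and 1 lower, with a median log2 fold change of 0.12. These 3 of 30 were close to the 11.1% called over all genes tested. Prlr, the prolactin receptor, which is closely related to GHR and uses JAK2 and STAT5 as well, fell from 164.5 ± 41.0 to 100.5 ± 26.8 CPM (n = 6, SD), with a log2 fold change of -0.71 and an edgeR adjusted p of 0.0246. Its call was lost without control replicate 3 (adjusted p = 0.0512) or 4 (adjusted p = 0.0589). Jak3, a kinase known mainly from blood cells, rose from 14.4 ± 1.49 to 29.8 ± 8.77 CPM without overlap between groups (log2 fold change 1.05, edgeR adjusted p = 0.000919). The macrophage and neutrophil markers given above moved in the same direction as Jak3, and their part was not tested.

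Socs3, the feedback inhibitor best known from interleukin-6 signalling, rose from 6.57 ± 1.58 to 10.3 ± 2.92 CPM (n = 6, SD), with a log2 fold change of 0.64 and an edgeR adjusted p of 0.0338. It was called in 11 of 19 alternatives, and lost its call without control replicate 2 (adjusted p = 0.0657), 3 (0.057), 4 (0.0792), 5 (0.0517) or 6 (0.0699) and without iTgMir483 replicate 4 (0.0704) or 6 (0.0742). With the replicate number as a block its adjusted p was 0.0694. Socs1 was too low to be tested, at 0.313 ± 0.190 and 0.271 ± 0.271 CPM.

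The other genes listed for a response to growth hormone or STAT5 in liver moved in both directions. The list gives no expected direction for its genes. The counts below therefore do not say whether the response rose or fell. Of 25 listed, 22 were tested, 9 were called lower and 3 higher, and 10 were not called. The median log2 fold change was -0.21, beside 0.01 over all genes tested, of which 2.73% were called lower and 8.41% higher. The largest falls were in Slco1a1, an uptake carrier for organic anions, Serpina1e, a protease inhibitor secreted into blood, Elovl3, a fatty acid elongase, and Selenbp2, a selenium-binding protein. Their log2 fold changes were -6.23, -4.35, -2.96 and -2.59, with edgeR adjusted p of 0.00228, 0.00446, 0.00242 and 0.00601. These 4 are at the same time on the list of male-biased genes, as are 6 of the 25 in all. Serpina1e has near-identical copies, and how reads common to them were counted was not examined. Single libraries moved these folds. Without control replicate 1 the log2 fold changes were -5.01 for Slco1a1, -3.42 for Serpina1e, -2.33 for Elovl3 and -2.02 for Selenbp2. Without iTgMir483 replicate 3 they were -8.03 for Slco1a1 and -3.20 for Selenbp2. Slco1a1 missed the threshold with limma-voom (adjusted p = 0.0719).

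The 3 genes called higher in the growth hormone list were Vldlr, Egr1 and Pparg. Vldlr, a receptor that takes up very low density lipoprotein, went from 16.3 ± 8.10 to 38.6 ± 13.7 CPM (n = 6, SD), with a log2 fold change of 1.24 and an edgeR adjusted p of 0.0142. Egr1, an immediate early transcription factor, went from 20.1 ± 8.58 to 46.0 ± 22.9 CPM, with a log2 fold change of 1.19 and an edgeR adjusted p of 0.0314, was called in 12 of 19 alternatives and had a highest adjusted p of 0.0692 over them. Pparg, a regulator of fat storage, went from 10.7 ± 2.85 to 16.9 ± 2.60 CPM, with a log2 fold change of 0.67 and an edgeR adjusted p of 0.0127. Without control replicate 1 its log2 fold change was 0.57, under the fold threshold. Onecut1, a hepatocyte transcription factor induced by growth hormone, had a log2 fold change of 0.43 (edgeR adjusted p = 0.12).

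**Figure D3:**
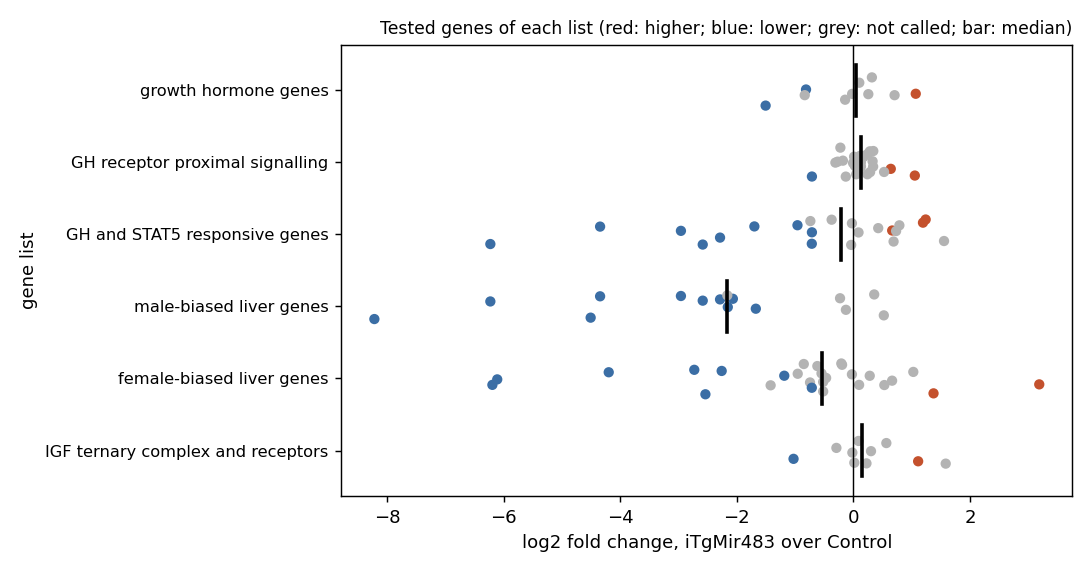
Log2 fold change, iTgMir483 over Control (horizontal axis), of each tested gene (point, n = 6 livers per group) in the growth hormone group and in 5 lists, with red for called higher, blue for called lower, grey for not called and a black bar at the list median. Proximal signalling genes gather near 0 with a median of 0.12, while male-biased genes reach down to -8.22 with a median of -2.16.

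Genes that differ between the sexes are the main targets of the growth hormone pattern. The paper gives all mice here as female, and genes of the sex chromosomes were not examined here to check this. Of 21 listed male-biased genes 15 were tested, 10 were called lower and 0 higher by edgeR, with a median log2 fold change of -2.16. Over all genes tested, 2.73% were called lower and 8.41% higher. No male-biased gene was higher at an unadjusted p under 0.05 or by DESeq2 or limma-voom, and those called lower were 9 and 7 by the latter 2 tools. Control replicate 1 carried much of their control level. Mup7, a major urinary protein with many near-identical copies, was at 272.6 CPM in control replicate 1, at 3.28 to 11.8 CPM in the other controls and at 0 to 0.946 CPM in iTgMir483 livers. Its log2 fold change was -8.22 (edgeR adjusted p = 0.0047), -5.18 without control replicate 1 (adjusted p = 0.000699) and -11.2 without iTgMir483 replicate 1 (adjusted p = 0.00554). With most iTgMir483 livers at 0 counts, the size of this fold depends on single libraries. Hsd3b5, a steroid-metabolizing enzyme of male liver, was at 30.5 CPM in control replicate 1 and at 0.0575 to 0.205 CPM in the other controls, and it was not tested. Slco1a1 was at 180.9 CPM in control replicate 1 and at 1.78 to 34.9 CPM in the other controls. Without control replicate 1, the male-biased list had 9 genes called lower and 3 higher, and a median of -1.36. Sult5a1, a sulfotransferase, fell without leaning on that library, with a log2 fold change of -4.51 (edgeR adjusted p = 0.00021), -4.43 without control replicate 1 and -5.12 without iTgMir483 replicate 1.

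Female-biased genes did not rise as a group. Of 27 tested, 8 were called lower and 2 higher, with a median log2 fold change of -0.55. Over all genes tested, 2.73% were called lower and 8.41% higher. Without control replicate 1, 13 of the female-biased genes were called lower and 2 higher. Sult3a1, a sulfotransferase, had a log2 fold change of -6.11 (edgeR adjusted p = 0.00111), and an adjusted p of 0.172 with limma-voom. It was at 0.3137 CPM in control replicate 1, at 41.36 to 195.6 CPM in the other controls and at 0.2198 to 3.299 CPM in iTgMir483 livers. Only 1 iTgMir483 liver was therefore below every control. Cyp3a44, a cytochrome P450 with close paralogs, fell by 4.20 on the log2 scale (edgeR adjusted p = 0.000688). Control replicate 1 was its lowest control as well, at 7.278 CPM, but above every iTgMir483 liver. This library was also the highest control for Hsd3b5, Mup7, Slco1a1 and Bcl6 and the lowest for Cux2. The cause was not tested.

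A1bg, a female-biased plasma glycoprotein, fell by 2.73 on the log2 scale with an edgeR adjusted p of 0.0499 and was called in 10 of 19 alternatives, with adjusted p from 0.00698 to 0.201. Its log2 fold change was -1.54 without control replicate 3, which was at 208.0 CPM beside 2.82 to 68.0 CPM in the other controls, and -3.32 without iTgMir483 replicate 4. The 2 female-biased genes that rose were Sult1e1, the estrogen sulfotransferase, from 2.87 ± 2.73 to 24.5 ± 12.2 CPM (n = 6, SD), with a log2 fold change of 3.19 and an edgeR adjusted p of 0.00192, and Prom1, a marker of progenitor and bile duct cells, from 1.33 ± 0.24 to 3.50 ± 1.66 CPM, with a log2 fold change of 1.37 and an edgeR adjusted p of 0.00446. The sum of the bile duct markers was 21.0 to 46.1 CPM in controls and 60.8 to 89.4 CPM in iTgMir483 livers. Spp1 made up most of that sum, at 25.6 ± 7.62 and 63.6 ± 11.7 CPM. Of the 5 tested, 3 were called higher, while Krt19 and Sox9 were not called. The part of these markers in Prom1 was not tested. Male-biased and female-biased genes thus both held more genes called lower than higher, and the difference between the 2 lists was not tested.

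**Figure D4:**
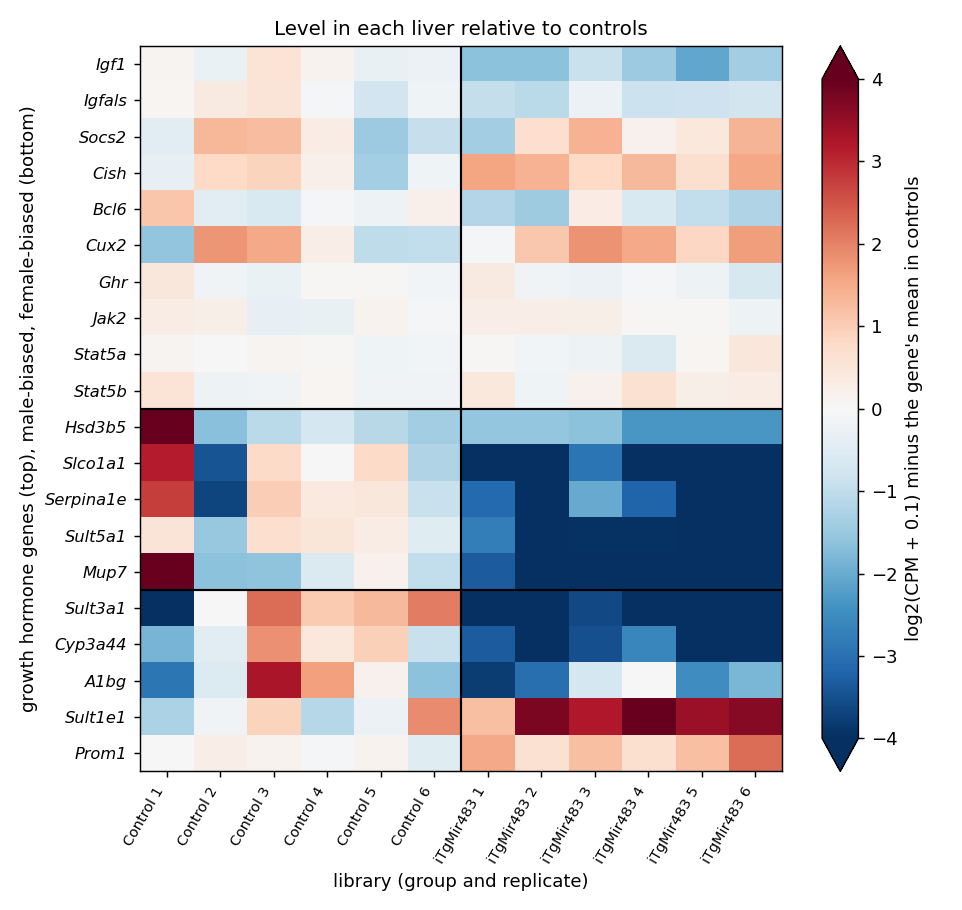
Log2(CPM + 0.1) of each gene in each of the 12 libraries (columns) minus the gene's mean in controls (colour, red above and blue below, cut at 4 either way), with the growth hormone genes on top, male-biased genes in the middle and female-biased genes at the bottom. Control replicate 1 stands out with Hsd3b5 at 30.5 CPM and Mup7 at 272.6 CPM, and Igf1 is low in all 6 iTgMir483 livers.

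Among the binding partners and receptors of IGF1, 10 of 16 listed genes were tested, 1 was called higher and 1 lower, with a median log2 fold change of 0.16. With 8.41% of all genes tested called higher and 2.73% lower, such counts in 10 genes are near the background. Igf1r, the receptor through which IGF1 signals and which hepatocytes express at a low level, rose from 4.42 ± 0.66 to 9.56 ± 2.02 CPM (SD, n = 6) without overlap between groups (log2 fold change 1.11, edgeR adjusted p = 0.000612). Igfbp2, a binding protein that carries IGF1 outside the large complex, fell from 740.3 ± 229.6 to 363.2 ± 133.8 CPM, with a log2 fold change of -1.03 and an edgeR adjusted p of 0.0175. Igfbp3, the partner of IGF1 and the acid-labile subunit in that complex, had 25.4 ± 6.03 and 27.0 ± 10.6 CPM, with a log2 fold change of 0.09 and an edgeR adjusted p of 0.844. Of the 3 genes of the circulating complex, Igf1 and Igfals therefore fell while Igfbp3 was not called.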

How the data were processed

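Poly(A) RNA of 12 livers was sequenced as paired ends. The authors used STAR with GRCm38 for alignment and deposited raw counts per gene. The strand column is not given in the sources used here, so overlapping and antisense genes are uncertain, and sequence copies such as Stat5a and Stat5b may share reads. Symbols and lengths came from GENCODE M21. The table had 0 columns of no sample and 0 rows that name no gene.

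Counts were filtered with filterByExpr (13205 genes kept), scaled by TMM and tested between groups by quasi-likelihood in edgeR 4.0.16 (R 4.3.3, with limma 3.58.1 for voom), without covariates, a test checked on simulated data. The precision is limited by 6 mice per group and floors cover counting error only. Ratios used 0.5 counts as pseudocount.

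Named genes were the 10 members, Mir483, at most the 4 largest called changes per direction in each list, Socs3, Socs1, Prlr, Onecut1, Igfbp3, Igf1r and Hsd3b5, and the 5 profiles most like Igf1 and like Socs2. Members and lists were chosen with earlier results of these data known. Fgb, Cps1, Alb, Spp1, Krt19, Sox9, Pecam1, Eng and Hgf were named after their values were seen. Alternatives were RLE scaling, other filters and thresholds, DESeq2 1.42.0, limma-voom, a replicate block and left-out libraries. Small-RNA libraries were not analysed here. A result that meets the naming rule is not reported here, although it remains in the counts.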

Additional observations from a re-analysis of the deposited data

Results flagged for a closer look

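In 17 of 68 groups of 6 livers tested, 1 library lay apart from the other 5 by Dixon's gap ratio (the gap to the nearest library over the whole range, above the usual critical value). For independent, normally distributed values chance gives about 1 in 20 groups, or 3.4 here. The values used were linear CPM, many genes were named for large changes, and several flags share a library. The 2 numbers are therefore not a test against chance. Among the growth hormone genes these were Stat5b (ratio 0.689) and Bcl6 (0.68) in control replicate 1, and Igfals (0.655) and Bcl6 (0.678) in iTgMir483 replicate 3. Control replicate 1 was the high library for the male-biased genes Hsd3b5 (0.995), Mup7 (0.968), Slco1a1 (0.815), Serpina1e (0.717), Elovl3 (0.714) and Selenbp2 (0.709). In iTgMir483 livers, replicate 3 was high for Slco1a1 (0.802) and Selenbp2 (0.74), replicate 1 for Mup7 (0.923) and replicate 4 for Jak3 (0.688). Control replicate 2 was high for Igf1r (0.823) and Vldlr (0.677), and control replicate 3 for A1bg (0.682). The cause was not tested.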

How the results depend on the processing

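Igf1 and Igfals kept their calls under 19 alternatives, the test against a fold change of 1.5 not counted, and Ghr, Jak2, Stat5a, Stat5b, Socs2 and Cux2 were called in none. Tested against a fold change of 1.5, 1 member was called (Igf1, so 1 lower and 0 higher), with 226 genes called in all (167 higher, 59 lower). Without a fold threshold 2457 genes were called, 968 of them lower. Members called higher were 0 with both libraries numbered 1 left out, and 0 to 1 over the left-out libraries. Against a fold change of 1.5 the called genes were 0 in proximal signalling, 6 in growth hormone response, 5 in female-biased genes and 1 in the IGF list. Proximal signalling had 5 without a fold threshold, and 1 to 4 over the left-out libraries. Male-biased genes had 5 called with at least 10 counts in every sample, where fewer genes were tested. The log2 ratio of Igf1 to Bcl6 was -0.91 with both libraries numbered 1 left out, and ran from -0.87 to -0.44 over the left-out libraries. With the 2 libraries farthest from the median left out, Pearson's r of Igf1 changed sign for Igfals (-0.21), Ghr (0.51), Jak2 (0.56), Cish (-0.45) and Bcl6 (0.26) in controls, and for Stat5b (-0.26), Cish (-0.10, and -0.12 on linear CPM) and Bcl6 (-0.61) in iTgMir483 livers. The causes were not tested. Between libraries of equal replicate number, the correlation of deviations from the group means was 0.44 for number 1 and 0.03 to 0.17 for the others. Numbers 1 and 5 matched their own number best. These values cannot decide whether equal numbers pair mice, and litter was not a term of the main test. With the replicate block 1530 genes and 3 members were called, Cish at 1.18, and Socs3 lost its call. DESeq2 gave Mup7 no adjusted p. Socs1 and Hsd3b5 were too low for the main test.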
